A study of Mus musculus with 4 samples.

Results

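Myogenic progenitors are the undifferentiated cells of the skeletal muscle lineage, and 399 of 44320 kept cells of embryonic mouse knee regions met the definition used here. Members were selected on measured values: a summed count of at least 2 UMIs (unique molecular identifiers, 1 per captured transcript) of Pax7 and Myf5, and 0 UMIs of Myog and Mymk. Kept cells had 200 to 6000 detected genes and at most 10% of their UMIs from mitochondrial genes. There were 178 members among 12446 kept cells of control E13.5, 83 of 9305 in control E14.5, 116 of 11264 in the Glut1-labelled mutant library and 22 of 11305 in the DCKO-labelled mutant library. Because Pax7, Myf5, Myog and Mymk chose the members, their levels describe the choice and are not results.

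The study took hindlimb cartilage with the presumptive knee joint from mouse embryos, rolled it on paper to strip soft tissue, digested it with collagenase D and made 1 10x Genomics 3′ library for each of 4 conditions. Its question is how glucose uptake bears on formation of the joint interzone, the band of cells from which the joint arises. The control libraries, 1 at E13.5 and 1 at E14.5, are titled WT, and the study describes its E14.5 controls as having no Cre. The 2 mutant libraries were both from E14.5: Prx1Cre;Glut1f/f;Glut3f/+, with both alleles of Glut1 (Slc2a1) and 1 allele of Glut3 (Slc2a3) floxed, and DCKO, which is Prx1Cre;Glut1f/f;Glut3f/f. How many embryos went into each library is not given in the sources used here. The mutant libraries are called Glut1-labelled and DCKO-labelled after these genotypes. Prx1Cre is driven by a promoter active in limb bud mesenchyme, and muscle progenitors of the limb come from another source. The progenitors here are therefore also those that survived a dissection meant to remove muscle, which limits what their number says about the limb.

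Limb muscle progenitors leave the somites, migrate into the limb bud under the control of Pax3, Lbx1 and the receptor Met, and multiply there among mesenchymal cells. Pax7 marks the population that persists as a reserve, Myf5 and Myod1 commit cells to the muscle fate, and Myog with the fusion proteins Mymk and Mymx drives exit from division and fusion into fibres. Notch signals from differentiating neighbours hold progenitors in the dividing state.

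With 1 library per condition there are no replicates, so no test was made, and the 95% intervals given with values cover counting error only. Values for 4 libraries are always listed in the order control E13.5, control E14.5, Glut1-labelled and DCKO-labelled. Levels are CPM, the UMIs of a gene scaled to a total of 1e6 UMIs over all cells of a group. Total depth was 100344565, 84188147, 97110697 and 91574038 UMIs. A kept cell held a median of 6176.5, 7279, 6757 and 6379 UMIs, whereas a member held 10467.5, 15285, 15112.5 and 11016. The members' RNA summed to 2020546, 1276551, 1845967 and 248597 UMIs. The DCKO-labelled members thus rest on 22 cells and the fewest UMIs, and 3 UMIs there already amount to 12.1 CPM, so every value from them has low precision. Cell barcodes shared by any pair of libraries numbered 25 to 40, and 0 were shared between members.

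Many members lie next to the threshold. Exactly 2 UMIs of Pax7 and Myf5 were found in 79, 25, 43 and 12 members, and the largest sums were 10, 9, 15 and 5. Just outside it, 158, 25, 46 and 11 kept cells without Myog or Mymk had 1 UMI of Pax7 or Myf5. A further 24, 6, 13 and 2 cells had enough Pax7 and Myf5 and 1 UMI of Myog or Mymk. In control E13.5 the cells left out at 1 UMI were nearly as many as the members, and in the E14.5 libraries they were fewer.

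Sex differed between the libraries. Xist, the RNA that coats the inactive X of females, had a UMI in 71.9%, 1.20%, 98.3% and 100% of members, and genes of the Y chromosome in 23.0%, 83.1%, 0% and 0%. Counts of 0 in 116 and 22 cells allow shares of up to 3.13% and 15.4%. Control E14.5 was therefore male, both mutant libraries female and control E13.5 a mixture. At E14.5 genotype and sex cannot be told apart, and the comparison of ages sets a male library against a mixed one. Within control E13.5, 114 members had Xist and no Y-linked UMI and 27 the reverse, which gives a contrast without age or genotype. These cells come from different embryos, so in it sex and embryo cannot be told apart. A further 14 members had both kinds of UMI, at a median depth of 15602.5 UMIs, and 23 neither. Members with both may be droplets with more than 1 cell or hold stray RNA, which was not tested.

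Slc2a1, which encodes the glucose transporter Glut1 (chromosome 4, 119108711 to 119137983, GRCm38), is the gene that the mutants were made to lose. Progenitors had 31.7 CPM in control E13.5 (95% interval 24.4 to 40.4, 64 UMIs), 28.2 in control E14.5 (19.8 to 39.0, 36 UMIs), 46.0 in the Glut1-labelled library (36.8 to 56.9, 85 UMIs) and 105 in the DCKO-labelled library (68.3 to 153, 26 UMIs). Mesenchymal cells, defined by at least 2 UMIs of Sox9 and Prrx1 and 0 of 11 markers of other lineages, had 52.2, 67.0, 383 and 434 CPM. The libraries labelled as deleted thus held more Slc2a1 RNA than the controls, most of all in the mesenchyme where Prx1Cre acts, which goes against a loss of the transcript. The 3′ tags count transcript ends and may lie outside the deleted part. Their position relative to it was not available, so the deletion could not be checked with them.

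Much of this excess in progenitors sat in a few cells that also carried cartilage RNA. Members with 20 or more UMIs summed over the cartilage genes Col2a1, Col9a1, Acan and Matn1 numbered 11, 8, 11 and 1, and they held 78.5%, 93.1%, 95.8% and 78.1% of the members' UMIs of these genes. Without them Slc2a1 stood at 25.7, 26.8, 27.1 and 25.6 CPM (47, 29, 43 and 6 UMIs), nearly equal in the 4 libraries. In the DCKO-labelled library 20 of 26 Slc2a1 UMIs came from 1 cell. Differentiating muscle cells, with no members left out, had 27.2, 23.7, 78.9 (67.8 to 91.3) and 75.5 CPM (52.6 to 105), higher in both mutant-labelled libraries. Their chondrocyte marker sum was higher there too, at 430, 535, 1510.5 and 1095 CPM, and its part in the Slc2a1 level was not tested. A median member had 1, 1, 0 and 0 cartilage UMIs. These chondrocyte-rich members may be droplets with more than 1 cell, and no doublet caller was run, so they stayed in the main values and were left out as an alternative.

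**Figure D1:**
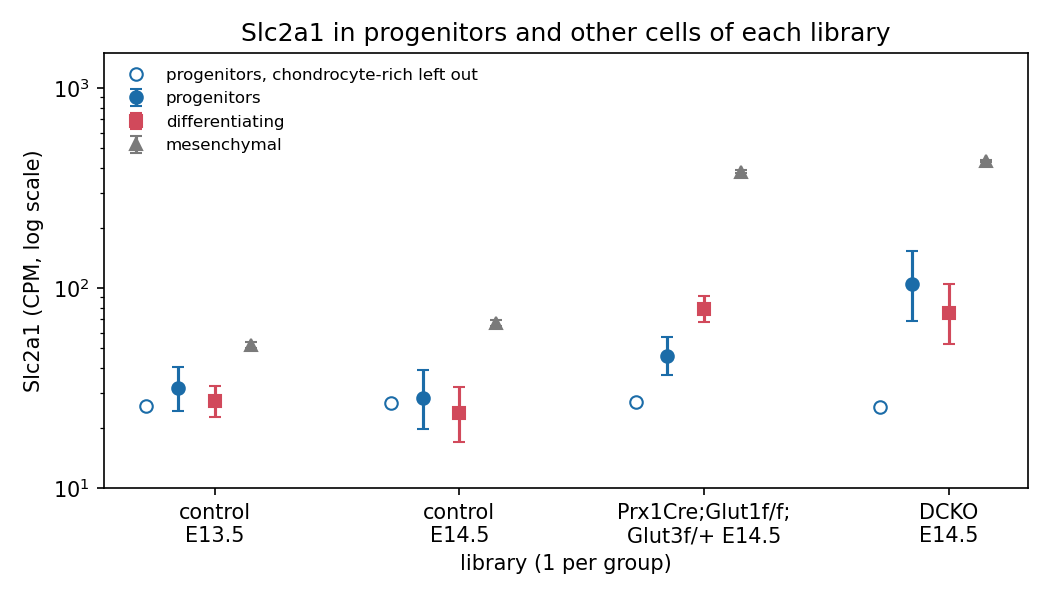
Slc2a1 level in CPM (log axis) for progenitors, differentiating and mesenchymal cells of each of the 4 libraries, 1 library per group, with bars for 95% counting intervals. Open circles are progenitors without the chondrocyte-rich members, drawn without intervals, and lie between 25.6 and 27.1 CPM, while mesenchymal cells reach 383 and 434 CPM in the libraries labelled as mutants.

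Slc2a3, encoding Glut3 (chromosome 6, 122727809 to 122801640), was near the detection limit, with 10, 2, 9 and 1 UMIs in progenitors. Mesenchymal cells had 4.87, 3.58, 4.07 and 2.21 CPM. At this depth no difference in Slc2a3 among progenitors was detectable. Of the other 9 transporters of the family, Slc2a8, Slc2a4 and Slc2a12 were the most frequent, with 18, 12 and 12 UMIs at E13.5, and Slc2a9 had 0 UMIs in all 4 libraries, against floors of 1.48, 2.35, 1.63 and 12.1 CPM set by 3 counts. Slc2a1 was therefore the most abundant family member in progenitors of every library.

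Txnip, whose product restrains glucose uptake and whose transcription follows glucose supply, separated progenitors from mesenchyme in the Glut1-labelled library. Progenitors had 8.41, 29.0, 20.0 and 16.1 CPM (17, 37, 37 and 4 UMIs). Mesenchymal cells had 12.4, 25.7, 3.58 and 4.34 CPM. In controls the cell types were alike, whereas in the mutant-labelled libraries the mesenchymal level was a small fraction of the control level and the progenitor level was not. For the DCKO-labelled library the intervals of progenitors (4.38 to 41.2 CPM, 4 UMIs) and mesenchyme (3.79 to 4.93 CPM) overlap. Differentiating muscle cells, at 13.3, 29.5, 20.5 and 15.1 CPM, were like the progenitors.

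The label of the cells was checked against genes that had not chosen them. Msc (musculin), a repressor found in undifferentiated muscle cells, had a UMI in 87.1%, 95.2%, 92.2% and 90.9% of members. The share in mesenchymal cells, which should lack it, was 0.870%, 0.654%, 0.318% and 0.218% at median depths of 6895.5, 8056, 7752 and 7314 UMIs. Thinned to 3000 UMIs per cell, the members' Msc shares were 56.1%, 58.6%, 54.9% and 54.4%. Msc was thus near uniform among members of all 4 libraries and rare in mesenchymal cells. The definition of mesenchymal cells requires 0 UMIs of Pax7, Myf5, Myod1, Myog and Mymk, which favours low Msc there. Among all kept cells other than members, which include differentiating muscle cells, the Msc share was 4.04%, 1.46%, 1.52% and 0.425%.

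Myod1 (chromosome 7, 46376474 to 46379099), the factor that commits cells to muscle, is named as a marker of these cells and was not part of the rule. Its level was 79.7, 143, 108 and 145 CPM in progenitors and 465, 418, 374 and 358 CPM in differentiating cells. Cells with a Myod1 UMI made up 41.0% (33.7 to 48.6), 48.2% (37.1 to 59.4), 54.3% (44.8 to 63.6) and 68.2% (45.1 to 86.1) of members. After thinning to 3000 UMIs the shares were 18.0%, 25.4%, 24.3% and 30.8%, with 2, 0, 2 and 0 shallower members left out. In progenitors control E13.5 was lowest and the DCKO-labelled library highest on each of these scales, with wide intervals for the latter. The DCKO-labelled level of 145 CPM was close to the 143 CPM of control E14.5. Mesenchymal cells cannot serve as background for Myod1, since their definition requires 0 UMIs of it.

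Against all other kept cells of the same library, 15 genes had the highest smallest ratio over the 4 libraries, which describes the selected cells. Pax7 and Myf5 are among them by the rule. Dbx1, a homeobox gene, led the list with 7.92, 19.6, 23.3 and 16.1 CPM in members and 0.0779, 0.231, 0.209 and 0 CPM in other cells. Lbx1, a regulator of muscle precursor migration, stood at 64.8, 36.0, 28.2 and 24.1 CPM, with the highest level at E13.5. En1, better known from limb and brain patterning, had 44.0, 56.4, 65.0 and 72.4 CPM, and its highest value was in the DCKO-labelled library.

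Vgll3, a cofactor of TEAD transcription factors, had 116, 81.5, 86.1 and 92.5 CPM. Six2, a homeobox gene, had 85.1, 41.5, 44.4 and 64.4 CPM. The most abundant of the 15 were Pdgfa, a growth factor for PDGFRA-bearing connective tissue cells, at 544, 406, 392 and 342 CPM, and Kcne1l, a potassium channel subunit, at 538, 418, 326 and 422 CPM. Both abundant genes were highest at E13.5. Zic1, Tbx1, Pde1c, Tll2, Gm9947 and Msc complete the 15. Of these Zic1 had 25, 13, 24 and 0 UMIs and Tll2 15, 2, 3 and 1, so that their values in the DCKO-labelled library are at or under the floor.

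Progenitors made up 1.43% of kept cells in control E13.5 (1.23 to 1.65), 0.892% in control E14.5 (0.711 to 1.10), 1.03% in the Glut1-labelled library (0.852 to 1.23) and 0.195% in the DCKO-labelled library (0.122 to 0.294). Differentiating muscle cells, those with at least 2 UMIs of Myog and Mymk, made up 3.30%, 1.39%, 1.55% and 0.389%. Both populations were highest at E13.5, alike in control E14.5 and the Glut1-labelled library, and lowest in the DCKO-labelled library. How completely soft tissue was removed from each sample was not measured, so a lower share and a cleaner dissection cannot be told apart.

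For every 100 differentiating cells there were 43.3 progenitors in control E13.5 (36.1 to 51.8), 64.3 in control E14.5 (48.2 to 85.4), 66.3 in the Glut1-labelled library (52.0 to 84.3) and 50 in the DCKO-labelled library (28.5 to 85.2). This ratio does not depend on how many non-muscle cells were captured. It was lower at E13.5 than in control E14.5 and the Glut1-labelled library, and the wide interval of the DCKO-labelled library covers all other values. Members had more UMIs at E14.5, and depth decides whether a cell reaches 2 UMIs. When every cell was thinned to 3000 UMIs the ratio was 15.9, 18.8, 16.3 and 16.1 and the share 0.386%, 0.198%, 0.196% and 0.0424%. The difference in the ratio between ages was thus mostly gone after thinning, while the share was still highest at E13.5 and lowest in the DCKO-labelled library. Without thinning, a threshold of 3 UMIs for Pax7 and Myf5 gave 27.9 in control E13.5 and 51.3 in control E14.5, no smaller a difference.

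**Figure D2:**
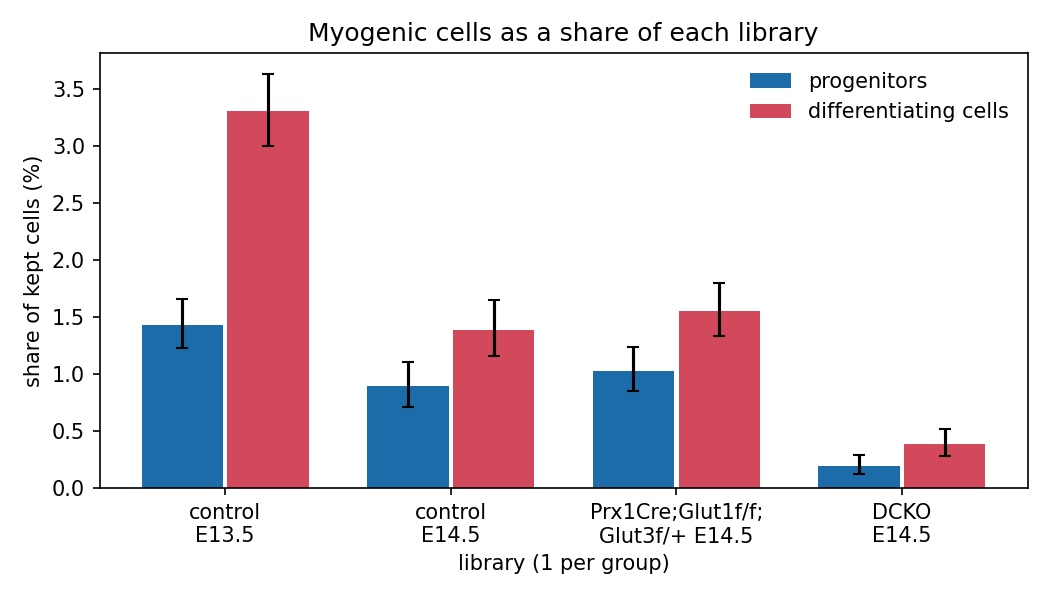
Progenitors and differentiating muscle cells as a percentage of kept cells in each of the 4 libraries, 1 library per group, with bars for 95% Clopper-Pearson intervals. Progenitors range from 0.195% in the DCKO-labelled library to 1.43% in control E13.5.

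Members were divided by which of the selecting genes they carried. Pax7 without Myf5 was seen in 30.9%, 27.7%, 37.1% and 27.3% of members, Myf5 without Pax7 in 14.6%, 10.8%, 7.76% and 13.6%, and both in 54.5%, 61.4%, 55.2% and 59.1%. These classes rest on the genes of the rule, so their sizes describe the choice. A cell with 1 gene may hold the other below detection, since most members carry few UMIs of either.

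These classes had similar shares of cells with Myod1. A Myod1 UMI was found in 38.2% of Pax7-only cells, 38.5% of Myf5-only cells and 43.3% of cells with both in control E13.5, and in 47.8%, 44.4% and 49.0% in control E14.5. In the Glut1-labelled library the shares were 51.2%, 44.4% and 57.8%. The intervals of the 3 classes overlap in each library, and the DCKO-labelled classes of 6, 3 and 13 cells are too few to read. Their sarcomere sums differed in some libraries: in the Glut1-labelled library Pax7-only cells had 2296 CPM (2176 to 2421), Myf5-only cells 1370 (1154 to 1614) and cells with both 1733, whereas in control E13.5 cells with both were highest, at 3293 against 2907 and 2958.

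Members with Myod1 had more contractile RNA and less Msc than members without it. Summed over 30 genes of the sarcomere, the contractile unit of muscle, members with a Myod1 UMI had 3294, 2242, 2344 and 3423 CPM, against 2976, 1902, 1281 and 2437 CPM in members without one. Des, the muscle intermediate filament, stood at 107, 155, 107 and 146 CPM with Myod1 and 74.5, 41.0, 73.1 and 98.6 CPM without. Msc went the other way, at 269, 217, 253 and 282 CPM with Myod1 and 370, 451, 328 and 296 CPM without. All 4 libraries had the same direction for the sarcomere sum, Des and Msc. The Des intervals overlapped in every library except control E14.5. The Msc intervals overlapped in the DCKO-labelled library (209 to 371 and 183 to 452, from 15 and 7 cells). Members with Myod1 were also deeper, with medians of 11823, 16905.5, 15951 and 11547 UMIs against 9477, 12831, 14348 and 10974, and the part of depth in these differences was not tested. Cell-cycle inhibitors, summed, were lower with Myod1 in the controls (3468 and 4124 CPM at E13.5, 4179 and 4882 at E14.5), higher in the Glut1-labelled library (4028 and 3664) and equal in the DCKO-labelled one.

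The comparison with differentiating cells asks which genes separate the muscle cells that have not begun terminal differentiation from those that have. Of 9937 genes with at least 50 UMIs over both groups, 83 (0.835%) were at least 2-fold higher in progenitors in all 4 libraries and 221 (2.22%) at least 2-fold lower. Both groups were chosen by Myog and Mymk, so genes that follow these had to differ, and nothing is read from the counts alone. The DCKO-labelled library limits the counts: without it 154 genes were higher and 341 lower. With the mean over cells of each cell's CPM in place of summed UMIs the counts were 144 and 242. TMM scaling moved the median ratio of all genes by −0.21, −0.12, −0.11 and −0.11 (log2), and log2 ratios of lists are to be read beside the all-gene medians of 0.19, 0.10, 0.12 and 0.07.

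Among 24 myogenic regulators, 22 passed the UMI minimum, of which 3 were higher in all 4 libraries, 5 lower, and the median log2 ratio was −0.08 against 0.13 for all genes. Besides Pax7 and Myf5, the higher gene was Msc, with 323, 324, 285 and 286 CPM in progenitors and 46.8, 42.8, 35.7 and 43.1 CPM in differentiating cells. Its log2 ratios of 2.79, 2.91, 2.99 and 2.70 were alike in the 4 libraries. The lower genes were Myog and Mymk by rule, Myod1, Mymx and Mef2c.

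Mymx, the second fusion protein, had 1, 0, 0 and 0 UMIs in progenitors and 271, 318, 309 and 179 CPM in differentiating cells. Mef2c, a factor that acts with Myog on muscle genes, had 11.4, 11.0, 13.54 and 28.2 CPM against 403, 113, 208 and 97.0 CPM. The members, selected without Myog and Mymk, thus had next to no RNA of this further fusion gene. The migration and specification factors differed less: Lbx1 had 64.8, 36.0, 28.2 and 24.1 CPM against 27.2, 23.1, 12.6 and 28.0. Six4, Eya2 and Eya4, partners that switch on Myod1 and Myf5, were at similar levels in both groups.

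Inhibitors of the myogenic factors were abundant. Id3, which sequesters the partners that Myod1 needs to bind DNA, stood at 1265, 1498, 1127 and 825 CPM in progenitors and 701, 895, 616 and 673 CPM in differentiating cells. Id1 had 584, 577, 382 and 274 CPM against 392, 410, 319 and 254 CPM. Id3 was the most abundant of the 24 regulators in progenitors of every library, and both Id genes were higher in progenitors than in differentiating cells of each library, by less than 2-fold. Pax3, needed for migration into the limb, had 22, 2, 0 and 0 UMIs in progenitors, and Myf6, a late muscle factor beside Myf5 on chromosome 10, had 1, 1, 4 and 0.

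Of the Notch genes, 4 separated the groups in all 4 libraries. Of 24 genes 17 were tested, with 2 higher and 2 lower in all 4 libraries and a median log2 ratio of 0.24. The list medians of the single libraries were 0.29, −0.10, 0.19 and −0.20. The higher genes were the receptor Notch3, at 74.2, 45.4, 53.6 and 52.3 CPM against 18.3, 15.6, 18.3 and 21.6, and the target gene Hey1, at 44.5, 25.9, 28.2 and 16.1 CPM against 7.62, 4.05, 3.92 and 0. The lower genes were the ligand Dll1, with 1, 0, 2 and 0 UMIs in progenitors and 18.3, 33.5, 22.7 and 25.9 CPM in differentiating cells, and the ligand-like Dner, at 5.94, 3.92, 1.08 and 4.02 CPM against 25.0, 28.3, 22.2 and 23.7. For these 4 of the 17 genes, progenitors of each library thus carried more RNA of a receptor and a target and differentiating cells more of the ligands.

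Other Notch genes followed less closely. Hes1, a classical target, had 137, 207, 204 and 205 CPM in progenitors and 107, 97.7, 167 and 97.0 CPM in differentiating cells. Hes6, which opposes Hes1 and promotes differentiation, was lower in progenitors, at 146, 136, 127 and 189 CPM against 522, 369, 329 and 313, although it fell short of 2-fold in the DCKO-labelled library. Heyl, another target, had 14.4, 21.9, 14.1 and 4.02 CPM against 8.05, 22.5, 6.97 and 12.9, with no common direction. The feedback gene Nrarp had 23, 10, 9 and 0 UMIs in progenitors.

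The contractile genes gave the widest gap. Of 28 sarcomere genes tested 22 were lower in all 4 libraries and 0 higher, with a median log2 ratio of −4.56. Mylpf, a fast myosin light chain, had 12.9, 6.27, 7.04 and 0 CPM against 3171, 400.5, 1249 and 563 CPM. Actc1, the embryonic skeletal actin, had 21.3, 14.1, 34.7 and 36.2 CPM against 3797, 2471, 2152 and 1544 CPM. Tnnt2, a troponin of early muscle, had 3.96, 1.57, 2.71 and 0 CPM against 422, 547, 521 and 237 CPM, and the levels of the groups did not overlap for any of these genes. Myh3, Myl4, Tnni1 and Hspb2, the last a small heat-shock protein of muscle, were near absent as well, with at most 5 UMIs of any of them in the progenitors of a library.

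Progenitors were not empty of contractile RNA. Tpm1, a tropomyosin of many cell types, reached 1123, 721, 730 and 1042 CPM against 1512, 1113, 912 and 1089 in differentiating cells. Tnnt1, the slow troponin T, stood at 553, 380, 297 and 523 CPM, and Acta2, an actin of smooth muscle and early myoblasts, at 781, 521, 403 and 953 CPM. The summed sarcomere level in progenitors was 3123, 2086, 1895 and 3142 CPM, between 26178, 11168, 13462 and 9837 CPM in differentiating cells and 536, 431, 392 and 338 CPM in mesenchymal cells. Tpm1 was the most abundant gene of the sum in each library. Acetylcholine receptor genes and their partners at the nerve contact behaved alike: 4 of 7 tested were lower, with a median of −2.79, while the anchoring protein gene Rapsn was already at 68.3, 60.3, 55.3 and 96.5 CPM in progenitors.

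**Figure D3:**
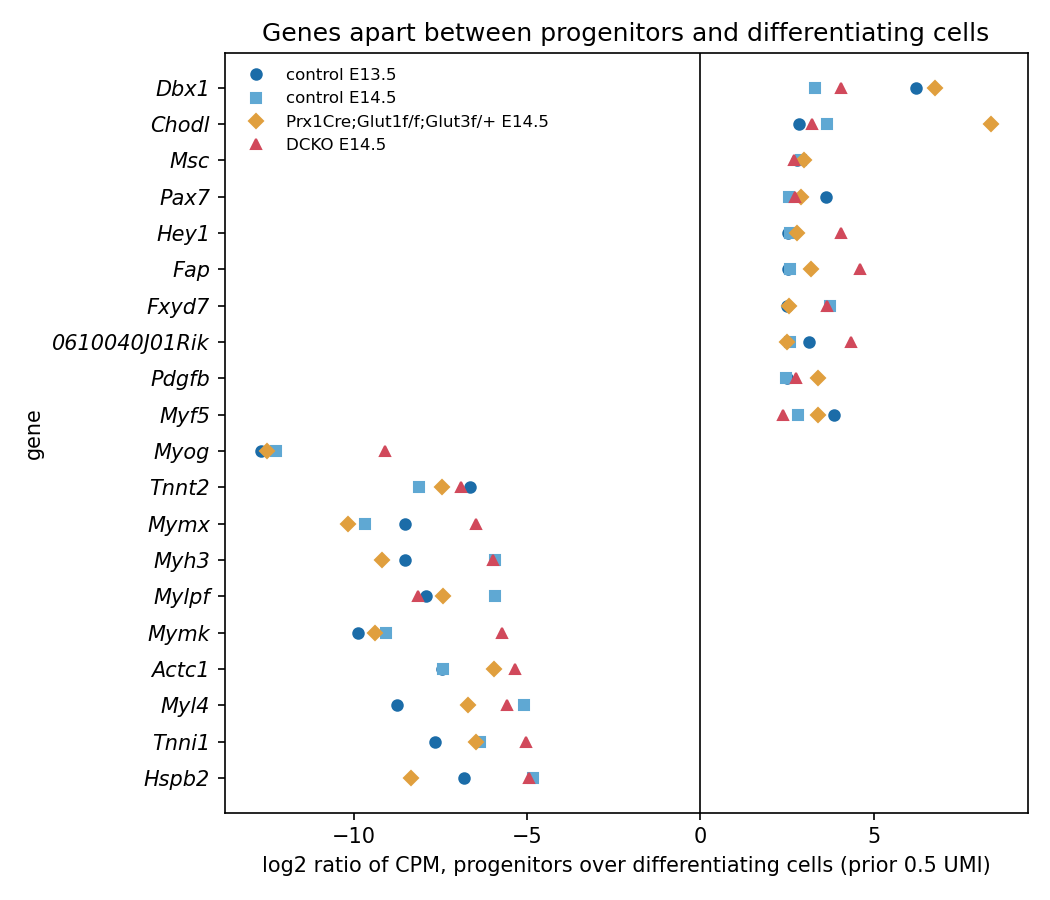
Log2 ratio of CPM, progenitors over differentiating cells, for the 10 genes highest and the 10 lowest by their smallest ratio over the 4 libraries, 1 point per library (prior count 0.5 UMI). Pax7, Myf5, Myog and Mymk chose the groups, and points for genes with 0 UMIs in a group depend on the prior count.

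Outside these lists, the genes most above differentiating cells were Dbx1, Chodl, Fap, Fxyd7, Pdgfb and 0610040J01Rik. Chodl, a membrane lectin, had 35.1, 83.0, 72.6 and 48.3 CPM in progenitors and 4.79, 6.36, 0 and 4.31 CPM in differentiating cells. Fxyd7, a regulator of the sodium pump, had 129, 89.3, 78.5 and 92.5 CPM against 22.6, 6.36, 13.1 and 6.47 CPM. The growth factor gene Pdgfb had 13.9, 23.5, 24.9 and 20.1 CPM against 2.39, 4.05, 2.18 and 2.16. Fap, a surface protease of connective tissue, had 17.8, 18.8, 21.7 and 24.1 CPM against 3.05, 2.89, 2.18 and 0. Each was higher in progenitors of all 4 libraries by the choice of the genes.

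RNA of S-phase genes was higher in progenitors. Of 28 genes of DNA synthesis 22 were above equal levels in all 4 libraries, compared with 2449 of 9937 genes in all, and the median log2 ratio was 0.76, although 0 were 2-fold higher throughout. Library medians were 0.80, 0.54, 0.83 and 0.67. Pcna, the clamp of the replication fork, had 238, 239.7, 238 and 294 CPM against 138, 175, 140 and 123. Genes of G2 and mitosis were less uniform, with 12 of 30 above equal levels in all 4 libraries and library medians of 0.69, 0.29, 0.44 and −0.05.

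Some inhibitors of the cell cycle were lower in progenitors. Of 9 tested, 4 were at least 2-fold lower in all 4 libraries and 0 higher, while 2 were above equal levels in all 4, Cdkn1b and Gadd45a, and the median was −0.20. Cdkn1a (p21), which stops division as myoblasts differentiate, had 11.9, 12.5, 16.3 and 12.1 CPM against 425, 331, 247 and 144 CPM. Rb1, which holds differentiated muscle out of the cycle, had 5.44, 3.92, 4.88 and 0 CPM against 70.3, 86.7, 67.6 and 47.4 CPM. Cdkn1c (p57) was the exception in amount: progenitors already had 3531, 4178, 3580 and 3423 CPM, as much as mesenchymal cells, and differentiating cells 7957, 9521, 8096 and 7858 CPM. Btg1 was the remaining lower gene.

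Surface and matrix genes of muscle progenitors divided. Of 28 tested 2 were higher, 5 lower, and the median was −0.11. Spry1, an inhibitor of FGF signalling known from quiescent muscle stem cells, had 105, 95.6, 72.0 and 96.5 CPM against 46.6, 42.2, 25.7 and 38.8. Its relative Spry4 was lower, at 6.43, 6.27, 7.04 and 0 CPM against 21.3, 30.6, 28.3 and 30.2, and of the 11 genes of the FGF response these were the only members past 2-fold in all 4 libraries. Cdh15 (M-cadherin), often used to mark satellite cells, was lower in progenitors, at 85.6, 83.8, 73.1 and 84.5 CPM against 234, 227, 200.1 and 192. Des, Mstn, Jam2 and Chrdl2 were lower too, while Calcr and Cd34, markers of adult satellite cells, had at most 1 UMI in any library.

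Energy genes did not separate the groups. Median log2 ratios were −0.05 for 15 glycolysis genes, 0.02 for 76 nuclear genes of oxidative phosphorylation, −0.03 for 13 genes of the mitochondrial genome and −0.02 for 78 ribosomal protein genes, with 0 genes past 2-fold in all 4 libraries in any of these lists. Hypoxia genes (22, median 0.32) and ATF4 targets (23, median 0.26) had 0 as well. Among 16 imprinted growth genes only Cdkn1c was lower, with a median of −0.21.

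Immediate-early genes leaned higher in progenitors, and growth factor response genes did not stand out. Of 19 immediate-early genes, which respond within minutes to growth factors or to tissue dissociation, 11 were above equal levels in all 4 libraries, with a median of 0.66. Only Nr4a1 passed 2-fold throughout, at 41.6, 72.9, 55.8 and 68.4 CPM against 19.8, 14.45, 24.0 and 25.9. Of 24 TGF-beta and BMP response genes 7 were above equal levels in all 4 libraries (median 0.28) and 1 was past 2-fold, the coreceptor Tgfbr3, at 16.3, 11.8, 7.04 and 8.05 CPM against 6.75, 1.73, 0.872 and 2.16. Its DCKO-labelled progenitor value lies under the floor of 12.1 CPM, so its fold there is not to be read. The part of dissociation in the immediate-early levels was not tested.

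RNA of other cell types was measured beside these results. The 8 chondrocyte markers summed to 446, 960.4, 1214 and 149 CPM in progenitors and to 3195, 9539, 8970.2 and 8671 CPM in mesenchymal cells. Col2a1 was the most abundant, at 223, 481, 613 and 96.5 CPM, and Hapln1, Cnmd and Matn3 had 0 UMIs in the DCKO-labelled members. Without the chondrocyte-rich members Col2a1 was 54.7, 35.1, 30.9 and 12.8 CPM. Over all members, chondrocyte RNA was therefore highest in control E14.5 and the Glut1-labelled library, and most of it sat in few cells. Without those cells Col2a1 was highest in control E13.5.

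Fibroblast markers summed to 419, 561, 464 and 378 CPM, led by Col1a2, and interzone markers to 178, 140.2, 168 and 173 CPM, led by Sfrp2. Erythroid markers summed to 405, 39.2, 23.3 and 8.05 CPM, with Hba-a1 the most abundant at E13.5. Macrophage markers had 1, 0, 17 and 0 UMIs, with Csf1r, C1qa, C1qb and C1qc at 0 in the Glut1-labelled library, and Sox10 had 0 UMIs in 3 of the 4 libraries. Endothelial markers were 14.4, 17.2, 14.6 and 4.02 CPM, nearly all from Egfl7, with Pecam1 and Kdr at 0 in every library. Fibroblast RNA was the highest of these 5 sums in every library, and macrophage RNA the lowest.

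The comparison of control E14.5 with control E13.5 asks how progenitors differ between the days. Of 6316 genes, 80 (1.27%) were at least 2-fold higher at E14.5 with an interval that left out equal levels, and 144 (2.28%) lower. With 1 UMI of Pax7 and Myf5 sufficing for members, 221 were lower. The median over all genes was −0.10, and TMM scaling moved it by 0.11 to 0.01 (log2). Progenitors of the later day had more Txnip and Dlk1 and less Hist1h2ap and Hmga1. Since control E14.5 is male and control E13.5 mixed, values in the E13.5 cells of each sex are given where they bear on a gene.

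Among 15 tested myogenic regulators that had no part in the rule, 1 was lower and 0 higher, with a median of −0.11. Lbx1 (64.8 and 36.0 CPM) and Eya1 (28.7 and 14.9) were lower by less than 2-fold, with intervals below 0. Myod1 was higher, at 79.7 and 143 CPM (0.84, 0.53 to 1.15), also by less than 2-fold. Pax3 had 22 UMIs on the earlier day and 2 on the later one (−2.51, −5.93 to −0.77), under the UMI minimum for testing.

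Dlk1, an imprinted inhibitor of differentiation, was higher, at 179 and 682 CPM (1.93, 1.75 to 2.11). Mesenchymal cells of the same libraries had 973 and 2815 CPM, so the direction was shared, and differentiating cells had 581 and 361, the reverse. At E13.5 members with Xist alone had 137 CPM and members with Y-linked RNA alone 60.3, and the 14 members with both held 130 of the 361 Dlk1 UMIs. The part of RNA from mesenchymal cells in the Dlk1 level was not tested. Nnat, another imprinted gene, was lower, at 841 and 350.2 CPM, and the other 14 imprinted genes were not called. The median of the 16 was 0.07, and −0.07 without chondrocyte-rich members.

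Among the highest genes at E14.5 were 2810403D21Rik, Olfr1369-ps1, Ccn4, Hist1h2af, Hist2h2bb, Mybpc1 and Txnip, with log2 ratios of 3.87, 3.59, 2.43, 1.98, 1.91, 1.79 and 1.76. Ccn4, a matricellular Wnt target, had 8.41 and 46.2 CPM, carried by 15 and 39 cells. Mybpc1, a myosin-binding protein of slow muscle, had 11.9 and 41.5 CPM. Txnip had 8.41 and 29.0 CPM, from 15 and 24 cells. Within E13.5, members with Xist and with Y-linked RNA had 6.11 and 17.7 CPM of Txnip (8 and 5 UMIs) and 8.40 and 21.3 of Mybpc1 (11 and 6 UMIs), with intervals that include equal levels. Ccn4, Mybpc1 and Txnip were spread over cells, whereas 59 of 69 UMIs of 2810403D21Rik and 32 of 49 of Olfr1369-ps1 came from 1 cell at E14.5.

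The 8 lowest were Hoxd11, AA465934, Hist1h2ap, Gm10076, Hmga1, Fhl2, Mir17hg and Chmp7, with log2 ratios of −3.50, −3.44, −2.33, −2.28, −2.11, −1.85, −1.83 and −1.66. Hoxd11, which patterns the lower limb, had 62 UMIs on the earlier day and 3 on the later one. Hmga1, a chromatin protein of early embryonic cells, had 72.3 and 16.5 CPM, and the host transcript Mir17hg of a microRNA cluster that promotes growth had 31.7 and 8.62. Hist1h2ap, a histone of S phase, had 1099 and 219 CPM. The mesenchymal cells had lower levels of all 8 at E14.5 as well. Their log2 ratios, in the same order, were −2.54, −4.33, −3.45, −2.48, −2.50, −0.97, −0.74 and −0.54. AA465934 differed by sex or embryo within E13.5, with 95 UMIs in members with Xist and 0 in members with Y-linked RNA, and so did Hoxd11, with 48 and 1, and Chmp7, with 29 and 1.

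Few genes of the cell-cycle and energy lists were called between the days. S-phase genes had a median of 0.01 with 0 of 28 called (−0.00 under the stricter cell filter), and 5 of 30 genes of G2 and mitosis were above 0 (median −0.28), with Dlgap5 the only lower call, compared with 2374 of 6316 genes in all. Of 8 tested sarcomere genes Mybpc1 was the only call and the median was −0.56. Oxidative phosphorylation (76 genes, 0.07), ribosomal proteins (70 of 78 above 0, median 0.14) and the mitochondrial genome (13, −0.32) had 0 calls. Eno1 was lower among 13 glycolysis genes, at 344 and 138 CPM, Psat1 higher among 14 ATF4 targets, at 23.8 and 58.0, and Ier3 higher among 19 immediate-early genes, at 41.6 and 165. Of 7 chondrocyte markers 5 were higher (median 1.11) and 4 of 4 tested erythroid markers lower (−3.52). Of 5 fibroblast markers 2 were higher (0.27), and the part of these 3 lists in the other differences was not tested.

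Signalling lists were near the all-gene median between days. Medians were −0.03 for 21 surface and matrix genes (0.08 with TMM scaling), −0.10 for 11 Notch genes (0.20 at a threshold of 3 UMIs), −0.13 for 7 FGF genes and −0.17 for 18 TGF-beta and BMP genes. Hypoxia genes were at 0.14 over 12 and immediate-early genes at 0.07 over 19, and without chondrocyte-rich members these were −0.12 and −0.03. Cell-cycle inhibitors were at 0.29 over 5. Dlk1 was the only gene called in the surface and Notch lists, to which it also belongs, and the direction of several medians depends on the setting.

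The Glut1-labelled library was compared with control E14.5 to ask how progenitors differ when the mesenchyme around them is labelled as lacking Glut1. Of 5837 genes 22 (0.377%) were higher and 23 (0.394%) lower, with a median of −0.02 (0.02 with TMM scaling). These are the smallest percentages of the 3 comparisons between libraries in each direction. Slc2a1 itself was at 0.70 (0.13 to 1.31), and at 0.01 without the chondrocyte-rich members. Sex-linked genes were among the largest ratios, with Xist at 694 and 0.783 CPM, and the DCKO comparison shares the same control library.

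Higher named genes were Cd74, Cck, Agps, Nid1, Mpst, Etv1, Nol10 and Eif2s3x. All 70 UMIs of Cd74, an antigen-presentation gene of immune cells, came from 1 cell, and its ratio was −0.53 without that cell and −0.55 without chondrocyte-rich members. Cck, a peptide hormone gene, had 58.0 CPM and 24.3 in control (log2 ratio 1.24, 0.67 to 1.88), but at E13.5 it was lower in members with Xist (−1.73). Etv1, an FGF-responsive factor, had 45.5 and 21.9 CPM. Nid1, a basement membrane protein, had 28.7 and 13.3 CPM, from 37 and 16 cells. Eif2s3x is X-linked, so for its 81.8 and 40.0 CPM sex and genotype cannot be told apart.

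Lower named genes were Col18a1, 2810403D21Rik, Fgf12, Pde10a, Tspan5, Snhg3 and Fjx1. Col18a1, a basement membrane collagen, had 9.75 and 32.9 CPM (−1.73, −2.64 to −0.93), and Fgf12 10.3 and 31.3 CPM (−1.59, −2.48 to −0.78). Both were spread over cells, 14 and 25 for Col18a1 and 17 and 25 for Fgf12. The other 5 had log2 ratios between −1.72 and −1.01. For 2810403D21Rik, 59 of 69 control UMIs and 18 of 30 Glut1-labelled UMIs came from 1 cell of each library.

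Muscle regulators of the Glut1-labelled progenitors leaned downward. Of 14 tested regulators that had no part in the rule, 0 were called and 3 were above 0, with a median of −0.40. Id1 had 382 and 577 CPM (−0.59, −0.74 to −0.44), Id3 1127 and 1498 CPM, and Myod1 108 and 143 CPM (−0.40, −0.69 to −0.10). These 3 were lower by less than 2-fold with intervals below 0, while Hes1 (204 and 207 CPM) and Notch3 (53.6 and 45.4) were within counting error. In the TGF-beta and BMP list 4 of 16 genes were above 0 (median −0.30), Id1 and Id3 among the lower, and Smad7, the pathway's feedback inhibitor, stood at 79.1 and 139 CPM.

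Genes of G2 and mitosis and some metabolic lists leaned slightly upward. Of 30 genes of G2 and mitosis 25 were above 0 (median 0.19), of 13 glycolysis genes 11 (0.18), of 13 mitochondrial genome genes 12 (0.28) and of 17 ATF4 targets 14 (0.17), compared with 2744 of 5837 genes in all. None of these lists had a called gene. S-phase genes were at −0.01, with 13 of 28 above 0 (0.02 with TMM scaling), cell-cycle inhibitors at −0.22 over 5 and hypoxia genes at −0.04, with 3 of 12 above 0 (0.00 with 1 UMI of Pax7 and Myf5 sufficing). Actc1 was the only sarcomere call, at 34.7 and 14.1 CPM, and Ier3 the only immediate-early one, at 67.7 and 165.

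The DCKO-labelled progenitors, 22 cells, were compared with the same control. Of 3784 genes 19 (0.502%) were higher and 113 (2.99%) lower, and without chondrocyte-rich members 61 were lower. At a threshold of 3 UMIs for Pax7 and Myf5, 35 were higher. The median over all genes was −0.00, and 0.02 without chondrocyte-rich members. A gene with 0 to 4 UMIs in the DCKO-labelled cells can be called lower, and whether the low total adds to the imbalance between the directions was not tested. Slc2a1 was at 1.90 (1.10 to 2.66), at 0.02 without chondrocyte-rich members and at −0.63 with the threshold of 3 UMIs.

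Higher named genes were Rxrg, Ap4s1, Itga4, Exo1, Adrm1, Pitx3, Tagln and Ncbp1, with log2 ratios from 1.13 to 1.34. Rxrg, a retinoid receptor, had 20 UMIs in 12 cells (80.5 CPM and 32.1 in control), and within E13.5 it was higher in members with Xist than with Y-linked RNA, at 71.8 and 24.8 CPM (1.44, 0.43 to 2.89). Pitx3, a homeobox gene found in muscle, had 68.4 and 30.6 CPM. Itga4, the integrin that binds VCAM1, had 76.4 and 32.1 CPM. Mesenchymal log2 ratios were 1.26 for Rxrg and 1.18 for Pitx3. The mesenchymal UMIs behind these ratios are not given here, so no likeness between the cell types is read from them. Tagln was at −0.04 with the threshold of 3 UMIs.

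Lower named genes were 2810403D21Rik, Olfr1369-ps1, Rbm24, Frat2, Cenpp, Gxylt2 and Psmg2. The first 2 are those carried mostly by 1 cell of the control. Rbm24, a splicing regulator of muscle genes, had 3 UMIs in the 22 cells and 76 in control (12.1 and 59.5 CPM, −2.09, −4.61 to −0.70). In control E13.5 and the Glut1-labelled library Rbm24 had 52 and 106 UMIs. The other genes had 2 to 4 UMIs in the DCKO-labelled cells, and their intervals span several-fold.

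Lists of the DCKO-labelled progenitors had few calls. Of 14 imprinted genes 3 were lower (median −0.41): Dlk1 at 145 and 682 CPM, Meg3 at 157 and 681 CPM and Rian at 44.2 and 147 CPM, which lie in 1 imprinted domain. Control E13.5 had 179 CPM of Dlk1, within the counting interval of the DCKO-labelled value (101 to 200). In the DCKO-labelled cells 14 of 36 Dlk1 UMIs came from 1 cell. Of 17 immediate-early genes 3 were lower (Egr1, Dusp1 and Klf2, median −0.36). Id1 was the only regulator called, at 274 and 577 CPM (−1.07, −1.46 to −0.72).

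Proliferation lists were mixed in these 22 cells. Of 24 S-phase genes 15 were above 0 (median 0.18), with Exo1 higher and Slbp lower, and of 27 genes of G2 and mitosis 7 were above 0 (−0.23), with Plk1 and Kif23 lower. Among all genes tested 1892 of 3784 were above 0. Sarcomere genes had a median of 0.46 over 7 tested, with 0 calls. Of 7 chondrocyte markers 6 were lower (−2.82), most of it from the chondrocyte-rich members of the control, and its part in the other lower genes was not tested beyond the count of 61 given above.

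The last comparison asks whether progenitors share the metabolic differences of the mesenchyme around them, in which Prx1Cre acts. It was made on genes with at least 20 UMIs in progenitors, as the difference between the log2 ratio in progenitors and that in mesenchymal cells. For Slc2a1 the Glut1-labelled ratio was 0.70 in progenitors and 2.51 in mesenchyme, a difference of −1.82 (−2.38 to −1.26). In the DCKO-labelled library it was 1.90 and 2.69, a difference of −0.79 (−1.52 to −0.07). Without chondrocyte-rich members the differences were −2.50 and −2.67, the latter with 6 Slc2a1 UMIs in DCKO-labelled progenitors. Whether the members left out are doublets was not tested.

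ATF4 targets, genes of amino acid synthesis and transport that respond to nutrient stress, showed the same separation. In the Glut1-labelled library their median was 0.15 in progenitors and 0.44 in mesenchyme, and 8 of 21 genes had a difference below 0 beyond counting error and 1 above. Over all 8397 genes with enough UMIs, 407 (4.85%) were below 0 and 709 (8.44%) above. In the DCKO-labelled library the medians were 0.21 and 0.78, with 5 of 18 genes below 0 and 0 above, compared with 204 (3.18%) and 534 (8.32%) of 6422 genes. Asns, which makes asparagine, had 20.4 CPM in control progenitors, 30.3 in Glut1-labelled and 24.1 in DCKO-labelled ones, whereas mesenchymal cells had 41.8, 107 and 199.7 CPM. Psat1, of serine synthesis, had 58.0, 59.6 and 52.3 CPM in progenitors and 26.9, 46.2 and 70.8 in mesenchyme.

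Mthfd2, of mitochondrial folate metabolism, had 66.6, 77.5 and 60.3 CPM in progenitors and 75.7, 123 and 199.9 in mesenchyme. The amino acid transporter gene Slc7a5 had 17.2, 15.7 and 8.05 CPM in progenitors and 10.8, 23.7 and 38.4 in mesenchyme. For all 4 genes mesenchyme was highest in the DCKO-labelled library, and the 3 progenitor values were within counting error of each other.

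Hypoxia genes gave differences in the same direction. Their medians were −0.04 in progenitors and 0.26 in mesenchyme of the Glut1-labelled library (6 of 19 genes below 0, 0 above), and −0.20 and 0.35 in the DCKO-labelled library (4 of 13 below 0, 0 above), beside the all-gene shares of 4.85% and 3.18% below 0. The size of these differences depended on how counts were scaled and averaged, as given in the last section. Egln1, an oxygen sensor that HIF induces, had 86.2, 72.0 and 101 CPM in progenitors and 89.6, 139 and 139 in mesenchyme. Higd1a, a mitochondrial HIF target, had 218, 226 and 185 CPM in progenitors and 665, 841 and 888 in mesenchyme. Egln1 and Higd1a were thus higher in mesenchyme of both mutant-labelled libraries than in control, while their progenitor values lay on both sides of the control level.

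Glycolysis genes did not separate the cell types. Median log2 ratios were 0.14 in progenitors and 0.00 in mesenchyme for 15 genes of the Glut1-labelled library, and 0.14 and 0.11 for 14 genes of the DCKO-labelled library. Differences beyond counting error lay in both directions, 1 below and 2 above 0 in the former and 1 below and 1 above in the latter. Aldoa had 479, 641 and 648 CPM in progenitors and 561, 789 and 805 in mesenchyme, higher in the mutant-labelled libraries in both. In progenitors the summed glycolysis level was 5429, 5724, 6385 and 6319 CPM over the 4 libraries.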

How the data were processed

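The 4 libraries were single-cell 3′ RNA libraries (10x Genomics, v3.1 chemistry, NovaSeq). The deposited tables hold the authors' count of UMIs for each gene in each barcode, from Cell Ranger (6.1.2 in the matrix headers, genome mm10), and the authors used Seurat 3. Those counts were used unchanged, and the authors' clusters were not used here. Cells were filtered and members chosen by the rule in the opening. The members and gene lists were chosen with earlier results of these data known. Counts of 38 symbols with more than 1 gene ID were summed. Of 32285 IDs 32158 matched GENCODE M21, from which coordinates (GRCm38) come. List genes Cyr61 and Ctgf had no match by symbol.

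UMIs were summed per library and cell group and scaled to CPM (Python 3.11.15, numpy 2.4.6, scipy 1.17.1, pandas 2.3.3). Log2 ratios used a prior count of 0.5. Intervals are exact: Clopper-Pearson for shares, Poisson for levels, conditional binomial for ratios; differences between cell types have a normal interval from the 4 counts. Genes needed 50 UMIs over both groups. A call between libraries needed 2-fold and an interval without equal levels. A call against differentiating cells needed 2-fold in the same direction in all 4 libraries. Named genes between libraries are the 8 highest and 8 lowest ratios among genes at least as high in progenitors as in other kept cells, without sex-linked, mitochondrial and haemoglobin genes; against differentiating cells the 10 in each direction, and against other cells the 15, by the smallest of 4 ratios. Other named genes belong to the gene lists. Some genes that these rules select are not reported here, and their alternatives are not counted. Eif2s3x was not among the sex-linked genes left out. Cells were thinned to 3000 UMIs by exact expectation, without sampling. Chondrocyte-rich members stood in for doublet calls. The script was tested on simulated counts.

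Alternatives were thresholds of 1 and 3 UMIs, no limit on Myog and Mymk, other cell filters, TMM factors (edgeR 4.0.16, R 4.3.3), totals without mitochondrial, ribosomal and haemoglobin genes, means over cells, minima of 20 and 100 UMIs, and chondrocyte-rich members left out. Leaving out the member with the most UMIs of a gene, and the DCKO library, were chosen after seeing the data.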

Additional observations from a re-analysis of the deposited data

Results flagged for a closer look

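In the comparison of the Glut1-labelled library with control E14.5, 4 genes of the glycolysis, hypoxia and ATF4 lists were set apart because their direction in progenitors was opposite to that in mesenchymal cells with both counting intervals clear of equal levels. Other genes outside these lists also had opposite directions, and none of these differences was tested. Tpi1, a glycolytic isomerase, was higher in progenitors (log2 ratio 0.20) and lower in mesenchyme (−0.05), a difference of 0.2510. Ldha, lactate dehydrogenase, was at 0.18 and −0.05, a difference of 0.2254. The stress factor Atf3 was at 0.44 and −0.17, a difference of 0.6144. P4ha2, a collagen hydroxylase, was lower in progenitors (−0.66) and higher in mesenchyme (0.42), a difference of −1.0780.

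In the DCKO comparison Bnip3, a mitophagy receptor, was lower in progenitors (−1.79, from 2 and 44 UMIs) and higher in mesenchyme (0.11), a difference of −1.9025. This difference was not tested, and it rests on 22 cells.

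Cells outside the filter also carried the marker signal: 8 barcodes of control E13.5 met the Pax7, Myf5, Myog and Mymk rule, each with more than 6000 genes, and they enter only the alternative without a cell filter. Control E14.5 and the Glut1-labelled library had 1 such barcode each.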

How the results depend on the processing

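Of 198 pairs of a result that answers a comparison and an alternative, 137 were within counting error (counts of genes within 1.5 times), 60 moved and 1 changed sign. With 1 or more UMIs of Pax7 and Myf5 the progenitor share was 2.70%, 1.16% and 1.44% in control E13.5, control E14.5 and the Glut1-labelled library, 221 genes were lower at E14.5, and the ATF4 difference of DCKO was −0.67. With 3 or more the shares were 0.795%, 0.623%, 0.648% and 0.0885%, and there were 27.9, 45.6 and 25.6 progenitors per 100 differentiating cells in control E13.5, the Glut1-labelled and the DCKO-labelled library. In DCKO this threshold gave Slc2a1 −0.63 and its difference from mesenchyme −3.32, Tagln −0.0392, 35 higher genes and a glycolysis difference of 0.12. With no limit on Myog and Mymk the shares were 1.78%, 1.14% and 1.29% in the first 3 libraries. Thinning gave shares of 0.386%, 0.198%, 0.196% and 0.0424%, and 15.9, 18.8, 16.3 and 16.1 per 100. Myod1 shares without thinning were 41.0%, 48.2%, 54.3% and 68.2%.

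With 20 UMIs as the minimum, which tests more genes, higher and lower calls were 164 and 332 between days, 70 and 85 for the Glut1-labelled library and 55 and 200 for DCKO. With 100 UMIs, which tests fewer, they were 44 and 54, 7 and 4, and 2 and 39, with 54 higher against differentiating cells. Leaving out the DCKO library, so that 3 libraries must be past the fold, gave 154 and 341 against differentiating cells. Means over cells gave 144 higher there, glycolysis differences of 0.16 (Glut1-labelled) and 0.13 (DCKO), and hypoxia differences of −0.11 and −0.26. TMM scaling gave DCKO differences of −0.71 for ATF4 targets, −0.75 for hypoxia and −0.18 for glycolysis. Without chondrocyte-rich members Slc2a1 was 0.0095 (Glut1-labelled) and 0.0233 (DCKO), its differences −2.50 and −2.67, Cd74 −0.55, DCKO lower genes 61 and the DCKO hypoxia difference −0.41. Without the member with the most UMIs of a gene Slc2a1 was 0.11 in DCKO and Cd74 −0.53 in the Glut1-labelled library. Apart from the number of genes or libraries, the cause was not tested.

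Of the other values, named genes between libraries were within counting error in 351 cases, moved in 6 and changed sign in the 3 given here; named genes against differentiating cells were within it in 122 and moved in 18, and list medians in 305 and 80. No paired analysis was possible because each condition has 1 library. Depth limits the DCKO-labelled values most, since 22 cells put the floor of 3 counts at 12.1 CPM. Genes under this level have no exact value there, so their folds are not to be read. Calls that include such values, among them Dll1, Dner, Spry4, Rb1, Tgfbr3, Frat2 and Cenpp, rest on few UMIs in that library. Of its 8 named higher genes 5 rest on fewer than 20 UMIs.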
